A study of Mus musculus with 10 samples.

Results

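Prostaglandins and leukotrienes are signalling lipids that cells make on demand from arachidonic acid. The cyclooxygenases, encoded by Ptgs1 and Ptgs2, turn arachidonic acid into prostaglandin H2, and terminal synthases such as Ptges, Hpgds and Ptgds turn that into prostaglandin E2 or D2. In the other branch 5-lipoxygenase (Alox5), helped by its membrane partner Alox5ap, makes leukotriene A4, from which Lta4h forms leukotriene B4 and Ltc4s leukotriene C4. In fat, macrophages and mast cells are known sources of leukotrienes and prostaglandin D2, while adipocytes and vascular cells also make prostaglandins.

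The set described here is 10 genes, Ptgs1, Ptgs2, Hpgds, Ptgds, Ptges, Alox5, Alox5ap, Lta4h, Ltc4s and Pla2g7, the last of which encodes an enzyme that breaks down platelet-activating factor, a related lipid. A gene was measured where a probe set carried its symbol and no other, and where several did, 1 was chosen by its mean signal over the 10 arrays, the highest being taken. By this rule 9 of the 10 genes were measured, out of 17097 genes on the arrays, and Ptgs1 was not analysed here. The measured values that chose the probe sets are thus the levels over all arrays, which are given only as a description. The set was put together with results of these arrays already known, so that its p-values, adjusted over all genes, are not independent evidence for the choice.

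The mice were males on a C57/Bl6 background, aged 8 to 12 weeks at the start, and all 3 genotypes ate a diet with 45 energy% fat for 16 weeks before epididymal white fat was taken. The groups were WT mice (n = 4), ASC-/- mice (n = 3), whose deleted gene Pycard encodes the adaptor of the inflammasome, and Casp1-/- mice (n = 3), which lack its protease caspase-1. There was 1 array per mouse, no lean group and no count of cells, and in a whole piece of fat fewer cells of a type and less RNA per cell cannot be told apart. Values are log2 signals, on which a step of 1 is a doubling. Control probe sets meant to bind nothing reached 5.01, and where a mean lay below that the size of a change is uncertain.

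The labels held. Pycard was 3.40 ± 0.27 (SD, n = 3) in ASC-/- against 9.82 ± 0.62 (SD, n = 4) in WT, and Casp1 was 4.85 ± 0.14 in Casp1-/- against 9.32 ± 0.55 in WT. Of 7 adipocyte markers, 6 had means over all arrays from 8.63 (Slc2a4) to 13.92 (Fabp4), while Pck1 lay at background (3.10). Spike-in controls added to the RNA before labelling divided the arrays into a high set (7.51 to 8.07), made of the Casp1-/- arrays and WT replicate 1, and a low set (5.76 to 6.50) of the other 6. No label names a batch. With the spike-in set as a block, which was added after seeing the data, Casp1-/- is compared with WT replicate 1 alone and ASC-/- with WT replicates 2 to 4. The 3' minus 5' signal of actin, a measure of RNA length, was 0.46 to 1.05 in WT, 0.54 to 0.67 in ASC-/- and 0.82 to 0.98 in Casp1-/-. WT replicate 1 and ASC-/- replicate 1 also stood apart for some smooth muscle genes, as given with Ptgs2.

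In Casp1-/- fat 2 of the 9 measured genes fell, Hpgds and Pla2g7, 0 rose and 7 missed the threshold of an adjusted p of 0.05 in limma. Over all genes 3.86% fell and 4.31% rose. An unadjusted p under 0.05 was found for 5 of the 9, where 27.6% of all genes had one. The median difference of the set was 0.07 and that of all genes 0.04. In ASC-/- fat 0 of the 9 passed in limma, 0 had an unadjusted p under 0.05, and 0.0351% of all genes passed, 0.0175% higher and 0.0175% lower. An unadjusted p under 0.05 was found for 2% of all genes. Set directly against Casp1-/-, ASC-/- fat had higher Hpgds and no other call in the set, where 7.39% of all genes passed, 3.85% higher and 3.54% lower. Here 4 of the 9 had an unadjusted p under 0.05, against 26% of all genes. The same 4 WT arrays serve both null genotypes.

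**Figure D1:**
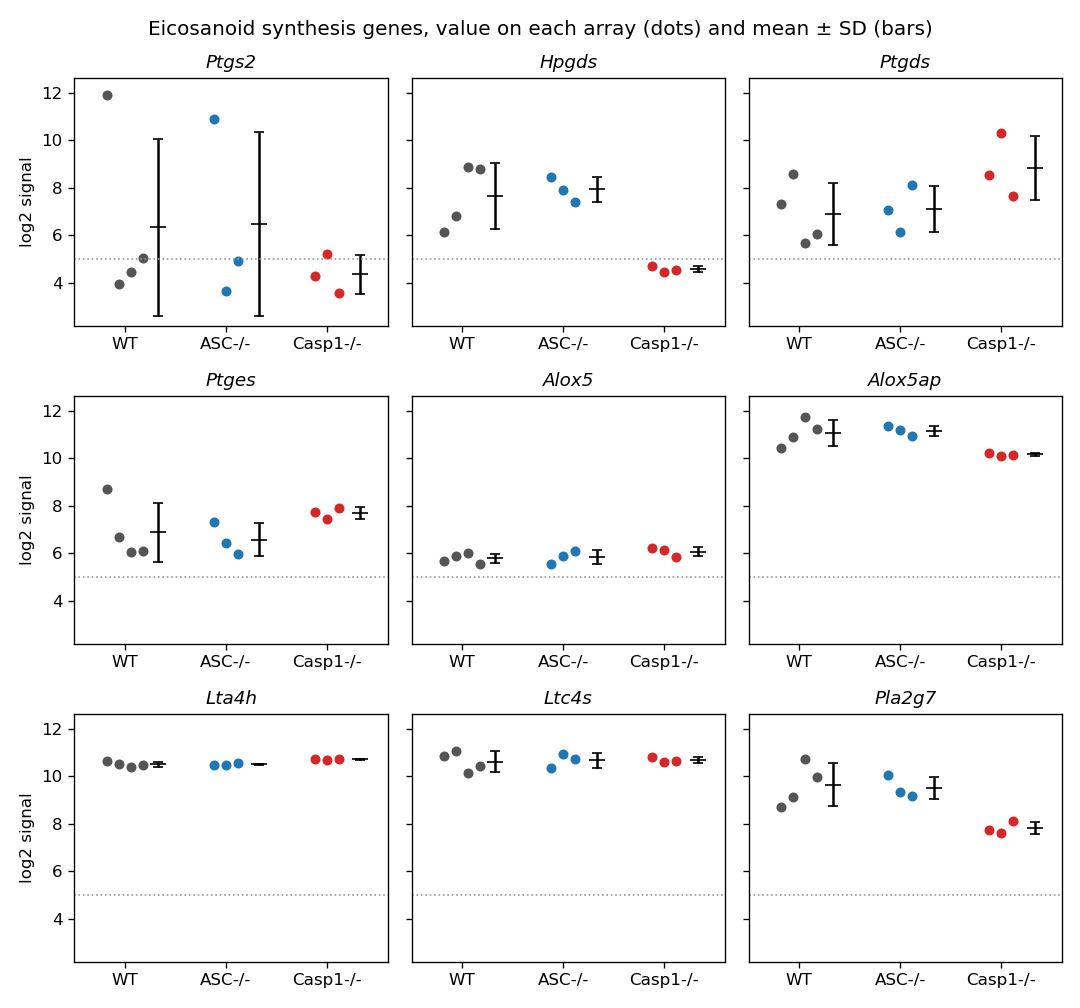
Log2 signal (y axis) of the 9 measured genes in the 3 genotypes (x axis), with a dot for each array, a bar for the mean ± SD and a dotted line at the highest background control. Hpgds, Pla2g7 and Alox5ap lie below every WT and ASC-/- array in Casp1-/-, and Ptgs2 is high on 1 WT array (11.90) and 1 ASC-/- array (10.89).

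Hpgds, the haematopoietic prostaglandin D synthase of mast cells, macrophages and T helper cells, had the largest change of the set. It read 6.12, 6.82, 8.86 and 8.77 in WT replicates 1 to 4. The ASC-/- arrays read 8.45, 7.92 and 7.41. In Casp1-/- the values were 4.72, 4.47 and 4.52, all under the highest background control and below every other array, while WT and ASC-/- overlapped. The means were 7.64 ± 1.38 (SD, n = 4) in WT, 7.93 ± 0.52 (SD, n = 3) in ASC-/- and 4.57 ± 0.13 (SD, n = 3) in Casp1-/-, and limma gave adjusted p = 0.0237 for Casp1-/- against WT. No fold is printed, since the Casp1-/- level lies within background, and for the same reason the fitted log2 differences of Hpgds from Casp1-/- given here are not exact sizes.

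The promoters of the prostaglandin D synthases are shown because both enzymes make the same product, and Hpgds passed the test here while Ptgds did not; the difference between their changes was not tested. Each is the 250 bases before the start of the gene, 5′ to 3′ on the gene's strand, from RefSeq on GRCm38.p6. Capitals mark matches, on either strand, to 6 searched motifs: GAGGAA (the core bound by PU.1, a myeloid factor), CATGTG and CACGTG (E-boxes), TGACTCA (bound by AP-1), TTGCGCAA (bound by C/EBP factors) and TATAAA (the TATA box). Hpgds lies at chr6:65144731-65144980 on the minus strand and Ptgds at chr2:25469750-25469999 on the minus strand.
Hpgds: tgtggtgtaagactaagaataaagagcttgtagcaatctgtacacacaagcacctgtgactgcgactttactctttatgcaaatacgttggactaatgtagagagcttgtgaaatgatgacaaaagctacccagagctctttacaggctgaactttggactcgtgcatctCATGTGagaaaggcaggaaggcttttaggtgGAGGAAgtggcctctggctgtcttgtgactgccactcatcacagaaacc
Ptgds: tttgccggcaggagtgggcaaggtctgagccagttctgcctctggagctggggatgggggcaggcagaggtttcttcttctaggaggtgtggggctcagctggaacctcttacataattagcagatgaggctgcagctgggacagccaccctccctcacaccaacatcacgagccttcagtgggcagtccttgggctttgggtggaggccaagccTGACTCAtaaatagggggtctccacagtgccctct

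The Hpgds window holds CATGTG from 80 to 75 bases and GAGGAA from 49 to 44 bases before the start. Of 27025 promoters of this length, 12.2% hold CATGTG and 23.1% hold GAGGAA on either strand. The Ptgds window holds TGACTCA from 35 to 29 bases before the start, a motif in 4.43% of promoters. The windows share none of the matched motifs, and a match is only a run of letters, with no binding measured here. GAGGAA was also in the windows of Ptgs2, Ptges, Alox5 and Lta4h, that is in 5 of the 8 measured genes with a listed promoter, and not in those of Ptgds, Ltc4s and Pla2g7.

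With any 1 array left out, the Hpgds difference from WT stayed from -3.58 to -2.67, in fits with fewer degrees of freedom. The call past the threshold was less steady. It was lost without WT replicate 4 (-2.70, adjusted p = 0.0596) and without Casp1-/- replicates 1 (-3.15, 0.0728), 2 (-3.02, 0.0940) or 3 (-3.05, 0.0795), and held without any of the other 6 arrays. Within the high spike-in set the difference from WT replicate 1 was -1.55 (adjusted p = 0.438). Against ASC-/- the difference of 3.36 ± 0.67 (SE) passed in limma (adjusted p = 0.0236), and it did not without ASC-/- replicates 1 (3.10, 0.0998) or 2 (3.36, 0.0799) or Casp1-/- replicates 1 (3.43, 0.0669), 2 (3.31, 0.0896) or 3 (3.34, 0.0724). With the spike-in block this difference was 1.33 (adjusted p = 0.763).

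Pla2g7, which encodes a secreted phospholipase made largely by macrophages, fell too. Its values were 8.72, 9.13, 10.74 and 9.98 in WT, 10.04, 9.34 and 9.16 in ASC-/- and 7.75, 7.59 and 8.10 in Casp1-/-. Again every Casp1-/- array lay below every other array, and WT spanned the ASC-/- range. The fall in Casp1-/- was 3.55-fold, a log2 difference of -1.83 ± 0.44 (SE) with a limma adjusted p = 0.037. The difference of 1.70 ± 0.47 (SE) between ASC-/- and Casp1-/- missed the threshold at adjusted p = 0.0571, and the interval of the ASC-/- difference from WT ran from -1.11 to 0.85.

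The call on Pla2g7 was lost without WT replicate 4 (-1.72, adjusted p = 0.0923), ASC-/- replicates 2 (-1.83, 0.0614) or 3 (-1.83, 0.0528), or Casp1-/- replicates 1 (-1.80, 0.11), 2 (-1.72, 0.125) or 3 (-1.97, 0.0871). Its difference from WT stayed from -2.14 to -1.46 with any 1 array left out. Against WT replicate 1 alone the difference was -0.91 (adjusted p = 0.588). Its promoter, at chr17:43568201-43568450 on the plus strand, is shown beside that of Hpgds because these were the pair that fell; it holds 14 CG pairs, where the median over all promoters is 6 and the Hpgds window has 3, and it matches none of the searched motifs.
Pla2g7: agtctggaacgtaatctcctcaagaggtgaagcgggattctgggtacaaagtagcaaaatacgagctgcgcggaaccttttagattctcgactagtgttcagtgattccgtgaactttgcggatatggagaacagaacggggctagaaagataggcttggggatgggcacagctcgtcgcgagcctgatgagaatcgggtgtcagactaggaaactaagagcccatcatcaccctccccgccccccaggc

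Hpgds and Pla2g7 followed the macrophage markers array by array. The mean of 16 macrophage markers was 9.10 to 9.29 in Casp1-/-, 9.73 to 10.99 in WT and 10.27 to 10.61 in ASC-/-. Of the 16, 10 fell in Casp1-/- against WT in limma, with a median over the list of -1.28, where 3.86% of all genes fell. Cd163 went the other way (0.59, limma adjusted p = 0.0965), and Mertk differed by only -0.11 (adjusted p = 0.836). When the 10 arrays are ranked, Hpgds and Pla2g7 each held the rank of the macrophage mean on 8 arrays, and on the remaining ones differed from it by 1 place. Hpgds spanned 4.39 on the log2 scale over the arrays, Pla2g7 3.15 and the macrophage mean 1.89. The markers' part in the falls was not tested. Of the mast cell markers, 9 were measured and had a mean of 5.22 to 6.67 in WT, 5.24 to 6.07 in ASC-/- and 4.64 to 5.45 in Casp1-/-, with overlap, and 0 of the 9 passed in limma. The rank of this mean matched that of Hpgds on 4 arrays. In 5 of the 9 (Fcer1a, Ms4a2, Tpsb2, Tpsab1 and Hdc) the mean over all arrays lay under the highest background control. The 3 brightest, which encode mast cell proteases, had log2 differences of -1.73 (Cma1), -1.63 (Mcpt4) and -1.56 (Cpa3) between Casp1-/- and WT, with limma adjusted p = 0.155, 0.176 and 0.206. Fcer1a, a chain of the IgE receptor, differed by -1.71 (adjusted p = 0.151), with no overlap, where 9.6% of all genes were lower without overlap. Kit, whose mean over all arrays was 5.42, differed by only -0.16 (limma adjusted p = 0.682). Over the 9 mast cell markers the median difference was -0.21, with 6 below and 3 above 0. The part of mast cells in the Hpgds values was not tested. Eosinophil markers, 5 in all, had means over the list of 3.14 to 3.47 on every array, within background.

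**Figure D2:**
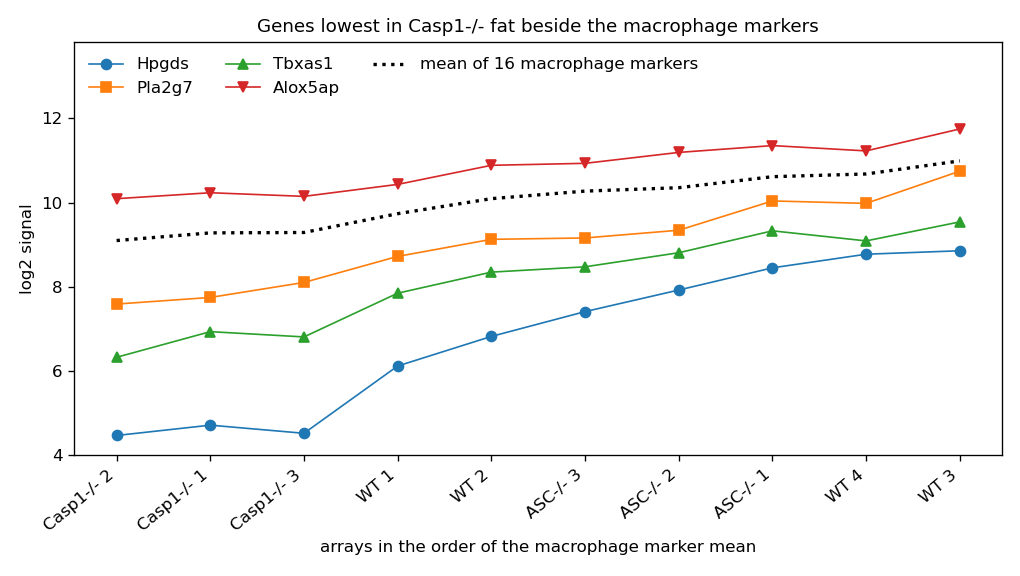
Log2 signal (y axis) of Hpgds, Pla2g7, Alox5ap and the thromboxane synthase gene Tbxas1 on the 10 arrays, ordered along the x axis by the mean of 16 macrophage markers (dotted line). The 3 Casp1-/- arrays are at the left, followed by WT replicates 1 and 2, and Hpgds has the widest span (4.39).

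By the likeness of profiles over the 10 arrays, each gene centred on its own mean, the genes nearest to Hpgds among 9659 above background were Cd72, Stap1 and Pkib. Their root mean square differences from it were 0.26, 0.29 and 0.34, where Hpgds itself varied by 1.67. Cd72 encodes a receptor of B cells and macrophages. The nearest to Pla2g7 were Tgif1 (0.12), Gpr137b (0.14) and Slc11a1 (0.16), where Pla2g7 varied by 0.98. Slc11a1 encodes a metal transporter of macrophage phagosomes.

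Ptgds, the lipocalin-type synthase that makes the same prostaglandin as Hpgds in brain, heart and genital tract, was at the other end. It read 7.31, 8.56, 5.69 and 6.05 in WT and 7.07, 6.14 and 8.10 in ASC-/-. The Casp1-/- arrays read 8.54, 10.30 and 7.66. Replicate 2 of Casp1-/- was the highest of all arrays, yet replicates 1 and 3 lay below WT replicate 2, so the groups overlapped. The log2 difference from WT was 1.93 ± 0.81 (SE) and missed the threshold (limma adjusted p = 0.161), as did the difference between the null genotypes of -1.73 ± 0.87 (SE, adjusted p = 0.244). A second, dimmer probe set ordered the extremes alike, with 8.93 on Casp1-/- replicate 2 and 3.28 on WT replicate 3.

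The spread of Ptgds within genotypes (SD 1.23) ranked 107th of 17097 genes. Markers of neighbouring tissues moved with part of it. The mean of 9 mesothelial markers was highest on Casp1-/- replicate 2 (8.06), and so was that of 9 epididymis markers (4.25, against 3.37 to 3.85 on the other arrays). In 7 of the 9 epididymis markers every array lay under the highest background control, and the others did not. Adam7 was 8.31 on Casp1-/- replicate 2, 6.20 on WT replicate 2 and 5.17 on Casp1-/- replicate 3, and 3.43 to 4.48 elsewhere. The first 2 were the arrays with the highest Ptgds. Casp1-/- replicate 1 had nearly the same Ptgds as WT replicate 2 (8.54 and 8.56), but its Adam7 was 3.48. Defb1 was 5.62 on Casp1-/- replicate 2 and 3.16 to 4.45 elsewhere. Their part in the Ptgds values was not tested. The nearest profiles to Ptgds, chosen after its values were seen, were ccdc198 (0.32), Reln (0.41) and Ccl21b (0.51). Ccl21b encodes a chemokine that guides lymphocytes and dendritic cells.

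Ptgs2, the inducible cyclooxygenase, was set by 2 arrays. It read 11.90 on WT replicate 1 and 3.95, 4.44 and 5.02 on WT replicates 2 to 4. In ASC-/- it read 10.89 on replicate 1 and 3.65 and 4.92 on the others. The Casp1-/- arrays read 4.29, 5.21 and 3.57. Thus 1 WT and 1 ASC-/- array were high. The other 8 arrays read 3.57 to 5.21, below or little above the highest background control, whatever their genotype, so the sizes of the differences are uncertain. The second probe set of Ptgs2 showed the same pair, at 8.00 and 6.07 against 3.19 to 3.55 elsewhere.

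Only 3 of 17097 genes varied more within genotypes than Ptgs2 (SD 3.23, where the median gene had 0.16). The 95% intervals of its differences were accordingly wide, from -6.75 to 2.82 for Casp1-/- minus WT (-1.97) and from -4.63 to 4.94 for ASC-/- minus WT (0.16), and no comparison passed. The ASC-/- difference rested on single arrays: it was 2.02 without WT replicate 1, and its sign turned without ASC-/- replicate 1 (-2.04) and without WT replicates 2 (-0.64), 3 (-0.47) or 4 (-0.28). Without both arrays the differences from WT were -0.11 in Casp1-/- and -0.18 in ASC-/-.

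The same arrays stood out for 2 of 4 smooth muscle markers, Cnn1 and Myh11. Cnn1, which encodes the contractile protein calponin, was 11.09 on WT replicate 1 and 9.55 on ASC-/- replicate 1, and 3.61 to 5.26 on the other 8. Myh11, the smooth muscle myosin heavy chain, was 11.04 and 9.27 on that pair and 5.32 to 7.27 elsewhere. The other markers were highest on WT replicate 1 but did not set ASC-/- replicate 1 apart. Acta2, the smooth muscle actin, was 12.83 on WT replicate 1, 11.98 on ASC-/- replicate 1 and 12.10 to 12.25 in Casp1-/-. Lmod1, which encodes leiomodin, was 6.30 on WT replicate 1, 4.39 on ASC-/- replicate 1 and 4.16 to 4.79 in Casp1-/-. The mean over the 4 markers was 10.32 and 8.80 on the pair and 5.87 to 7.05 on the rest. Cnn1 was also the gene whose profile was nearest to Ptgs2 (0.53, where Ptgs2 varied by 2.86), followed by the enteric smooth muscle actin gene Actg2 (0.58) and Pcp4 (1.12), a search made after the Ptgs2 values were seen. The part of smooth muscle RNA in the Ptgs2 values was not tested.

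The Ptgs2 promoter is shown for the element it holds near its start. It lies at chr1:150099781-150100030 on the plus strand, with TTGCGCAA from 69 to 62 bases before the start, a motif that 46 of 27025 promoters (0.17%) hold, and GAGGAA from 247 to 242.
Ptgs2: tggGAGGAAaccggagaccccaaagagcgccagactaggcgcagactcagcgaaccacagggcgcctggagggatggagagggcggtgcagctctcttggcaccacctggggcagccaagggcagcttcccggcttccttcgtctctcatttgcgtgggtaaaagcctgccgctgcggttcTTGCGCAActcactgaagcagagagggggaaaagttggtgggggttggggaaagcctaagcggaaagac

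**Figure D3:**
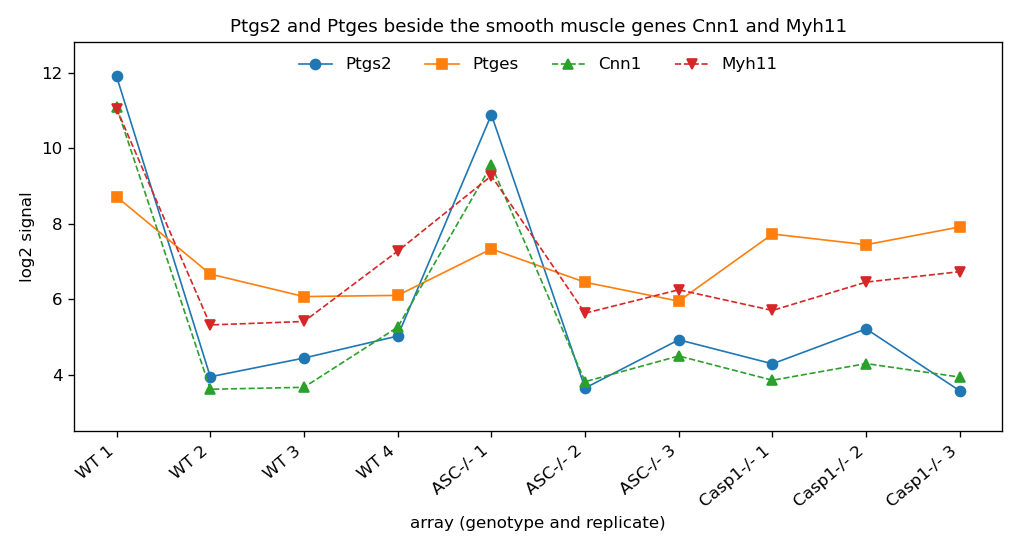
Log2 signal (y axis) of Ptgs2, Ptges and the smooth muscle genes Cnn1 and Myh11 on each of the 10 arrays (x axis). Ptgs2, Cnn1 and Myh11 peak together on WT replicate 1 and ASC-/- replicate 1, while Ptges is also higher on the Casp1-/- arrays than on the remaining WT arrays.

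Ptges, the microsomal prostaglandin E synthase that works downstream of Ptgs2, shared part of that pattern. It read 8.71, 6.66, 6.07 and 6.10 in WT, 7.33, 6.45 and 5.95 in ASC-/- and 7.73, 7.44 and 7.91 in Casp1-/-. The array with the highest Ptgs2 was also the highest for Ptges, and apart from it every Casp1-/- array lay above every WT and ASC-/- array. With all arrays the difference of Casp1-/- from WT was 0.81 ± 0.60 (SE, limma adjusted p = 0.421). Without WT replicate 1 it was 1.42 and passed (adjusted p = 0.0235), and against WT replicate 1 alone it was -1.02 (adjusted p = 0.429). With any 1 array left out the difference stayed above 0, from 0.53 to 1.42. In the fit without WT replicate 1 and ASC-/- replicate 1, added after seeing the data, Casp1-/- minus WT was 1.42 for Ptges (limma adjusted p = 0.00781). There ASC-/- minus Casp1-/- was -1.50 (adjusted p = 0.0252). Leaving out the highest Ptges array by itself lowers the WT mean and spread. The p-values without WT replicate 1 are thus not independent evidence. Without that array the high spike-in set holds the Casp1-/- arrays alone, and genotype and spike-in set cannot be told apart. Both other probe sets of Ptges were also highest on WT replicate 1 (7.55 and 5.73).

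In the leukotriene branch 0 of 4 genes passed in limma in any comparison. Of all genes 8.17% passed in Casp1-/- against WT, 7.39% in ASC-/- against Casp1-/- and 0.0351% in ASC-/- against WT. At such shares 0 of 4 does not set the branch apart. Alox5ap, the protein that presents arachidonic acid to 5-lipoxygenase, read 10.43, 10.88, 11.75 and 11.23 in WT, 11.35, 11.19 and 10.93 in ASC-/- and 10.23, 10.09 and 10.15 in Casp1-/-. The Casp1-/- arrays lay below all others. The log2 differences were -0.91 ± 0.26 (SE, limma adjusted p = 0.0589) from WT and 1.00 ± 0.28 (SE, adjusted p = 0.0586) for ASC-/- minus Casp1-/-, both just short of the threshold. It passed against WT with the dimmest genes left out (adjusted p = 0.0498), with array weights (0.0103) and without WT replicate 1 (-1.13, 0.0103), while the difference from WT replicate 1 alone was -0.27. Alox5ap also kept to the macrophage order, within 1 rank on every array and at the same rank on 6.

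Alox5 itself, the lipoxygenase, was near the middle of all genes in level (5.88 over all arrays, the 50.1th percentile) and did not follow its partner. It was 5.78 ± 0.20 in WT, 5.84 ± 0.28 in ASC-/- and 6.07 ± 0.20 in Casp1-/-, with overlap between all groups. The interval of the Casp1-/- difference from WT ran from -0.08 to 0.65. Whereas the 3 lowest arrays for Alox5ap were those of Casp1-/-, 2 of these were the highest for Alox5 (6.24 and 6.12).

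Lta4h, the hydrolase that forms leukotriene B4, was the steadiest of the set. Its values were 10.65, 10.49, 10.40 and 10.47 in WT, 10.48, 10.49 and 10.54 in ASC-/- and 10.72, 10.67 and 10.72 in Casp1-/-. Each Casp1-/- array lay above each WT and ASC-/- array, by a mean of 0.20 ± 0.075 (SE, limma adjusted p = 0.123) over WT, and it passed only without WT replicate 1 (0.25, adjusted p = 0.0378). ASC-/- and WT had means of 10.50, with an interval of the difference from -0.17 to 0.17. Its spread within genotypes was at the 6.8th percentile of all genes.

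Ltc4s, the synthase of the cysteinyl leukotrienes, read 10.84, 11.08, 10.11 and 10.41 in WT. It read 10.33, 10.94 and 10.74 in ASC-/- and 10.82, 10.59 and 10.64 in Casp1-/-. All groups overlapped and the intervals ran from -0.44 to 0.58 for Casp1-/- and from -0.45 to 0.57 for ASC-/- against WT. Unlike Alox5ap, Ltc4s was lowest on WT replicate 3, the array with the highest macrophage mean.

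**Figure D4:**
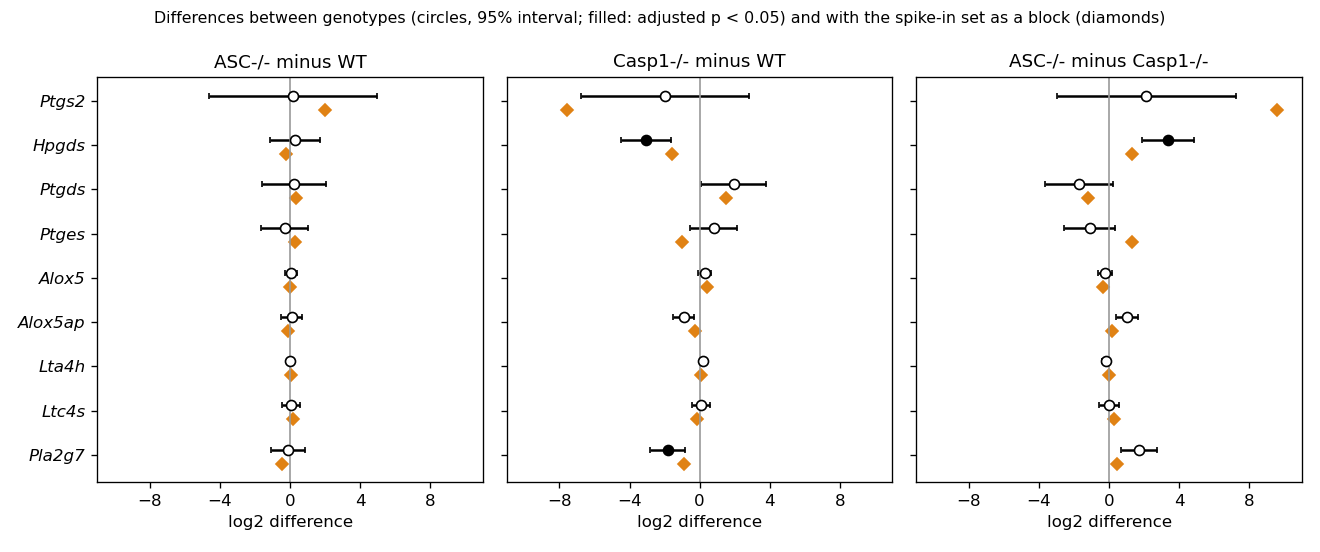
Log2 differences (x axis) of the 9 genes (y axis) in the 3 comparisons, as circles with 95% intervals, filled where the limma adjusted p was under 0.05, and as diamonds with the spike-in set as a block. Hpgds and Pla2g7 are filled for Casp1-/- minus WT, and with the block their differences are -1.55 and -0.91.

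No gene of the set separated ASC-/- from WT. The differences ran from -0.31 (Ptges) to 0.29 (Hpgds), 6 above and 3 below 0, with 0 of 9 free of overlap where 3.19% of all genes were, 1.33% higher and 1.86% lower. In Casp1-/- 4 of 9 did not overlap WT, 3 of them lower and 1 higher, where 24.7% of all genes were free of overlap, 9.6% lower and 15.1% higher. For ASC-/- against Casp1-/- it was 5 of 9, 3 higher and 2 lower, where the share over all genes was 40.4%, 17.3% higher and 23.1% lower. Whether these shares differ from those of all genes was not tested.

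Other genes of the same lipids, from a list of 64 of which 54 were measured, gave 8 calls in Casp1-/- against WT, 5 lower and 3 higher, where 8.17% of all genes passed. Their median difference was 0.06. The largest fall was that of Tbxas1, which turns prostaglandin H2 into thromboxane: 7.85, 8.35, 9.54 and 9.09 in WT, 9.33, 8.81 and 8.47 in ASC-/- and 6.94, 6.33 and 6.81 in Casp1-/-. It was 4.04-fold lower in Casp1-/- (limma adjusted p = 0.0202) and 4.53-fold higher in ASC-/- than in Casp1-/- (adjusted p = 0.0194), with no overlap, and stayed within 1 rank of the macrophage mean on every array. With the spike-in block the difference from WT was -1.16 (adjusted p = 0.36) and that between ASC-/- and Casp1-/- 1.03 (adjusted p = 0.688).

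Of the 4 receptor genes for prostaglandin E2, 2 fell in Casp1-/-, Ptger2 and Ptger4, where 3.86% of all genes fell. Ptger2 was 5.80 ± 0.29 in Casp1-/- against 7.06 ± 0.56 in WT and 7.54 ± 0.10 in ASC-/-, a 2.40-fold fall from WT (limma adjusted p = 0.0271). Ptger4 was 7.96 ± 0.12 against 8.71 ± 0.34 and 8.70 ± 0.10, 1.68-fold lower than in WT (adjusted p = 0.031). Both encode receptors that raise cyclic AMP. The others, named after their values were seen, did not pass: Ptger1 lay within background, and Ptger3 was 10.55 ± 0.38 in Casp1-/- against 9.96 ± 0.41 in WT (adjusted p = 0.138) and 9.70 ± 0.13 in ASC-/- (adjusted p = 0.0698), the opposite direction. Ptger2 and Ptger4 also passed in ASC-/- against Casp1-/- (limma adjusted p = 0.0135 and 0.0399). With the spike-in block those differences of Ptger2 and Ptger4 were 1.00 and 0.35 (adjusted p = 0.541 and 0.817). With the block the differences from WT were -0.71 and -0.46, and neither passed (adjusted p = 0.477 and 0.491). The other 6 measured prostanoid receptors missed the threshold in all 3 comparisons.

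In the phospholipase group, whose members free fatty acids from membranes, 2 of 10 genes rose in Casp1-/- and 0 fell, where 4.31% of all genes rose and 3.86% fell. Of the 10 differences from WT, 7 were above 0 and 3 below. The lowest, named after its values were seen, was that of Pla2g4a (-0.95, limma adjusted p = 0.15). Pla2g12a went from 8.11 ± 0.34 in WT to 8.77 ± 0.10 (limma adjusted p = 0.0491). Pla2g2d, a secreted phospholipase of lymphoid tissue, went from 4.65 ± 0.52 to 5.76 ± 0.31 (adjusted p = 0.037), the WT mean lying within background. Pla2g2d was also higher in Casp1-/- than in ASC-/- (4.26 ± 0.21, adjusted p = 0.0203), a call lost with the block (-1.39, adjusted p = 0.442). With the block the differences from WT were 0.43 and 1.03, and neither passed (adjusted p = 0.581 and 0.374).

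Of the platelet-activating factor genes, 2 of 6 fell beside Pla2g7, where 3.86% of all genes fell. These were Lpcat1, an acyltransferase that can form the lipid (7.39 ± 0.074 against 7.83 ± 0.19, limma adjusted p = 0.0411), and Pafah1b1, a regulatory subunit of an intracellular hydrolase (6.18 ± 0.16 against 6.71 ± 0.15, adjusted p = 0.0337). Ltb4r1, the leukotriene B4 receptor gene, was called higher (adjusted p = 0.0454), but at 4.38 ± 0.055 against 3.84 ± 0.28 both means lay within background. Cyp4f18, which inactivates leukotriene B4 in myeloid cells, was 5.90 ± 0.11 in ASC-/- and 5.16 ± 0.033 in Casp1-/- and passed in that comparison only (adjusted p = 0.0238), WT lying between at 5.64 ± 0.28. With the block none of these 4 passed in the comparison in which it is given here (-0.23, -0.39, 0.71 and 0.48, adjusted p = 0.598, 0.445, 0.202 and 0.651).

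**Figure D5:**
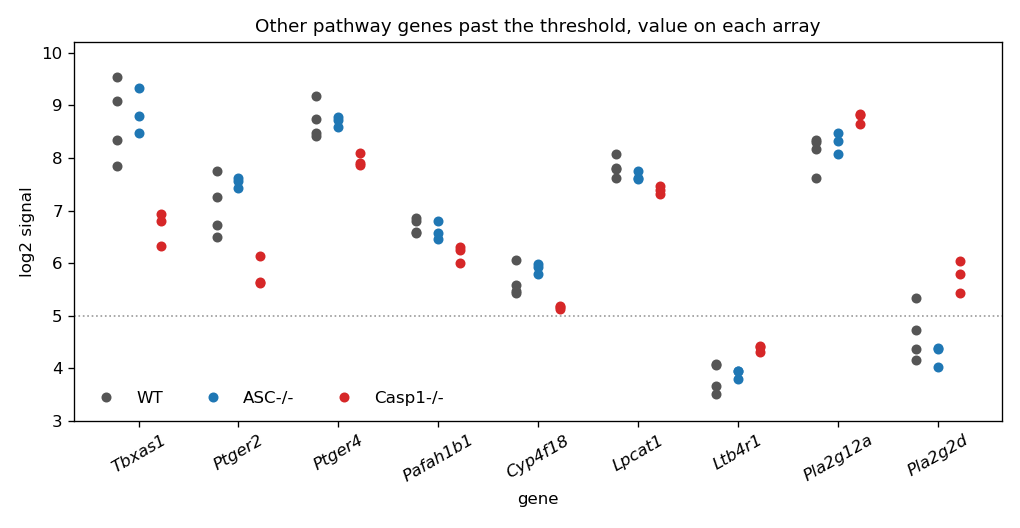
Log2 signal (y axis) on each array (dots, coloured by genotype) of the 9 other pathway genes past the threshold in at least 1 comparison (x axis), with a dotted line at the highest background control. Tbxas1, Ptger2 and Ptger4 are lower on the Casp1-/- arrays, and Pla2g2d is higher.

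These calls on the wider pathway shared the limits of the set. Their number in Casp1-/- against WT was 1 without WT replicate 4, 5 without ASC-/- replicate 1, 3 without ASC-/- replicate 2 or 3, and 0 without any 1 of the Casp1-/- arrays. Leaving out any array, also one outside the comparison, lowers the degrees of freedom of the shared spread and renews the adjustment over all genes. The counts over all genes in these fits are not given, so the changes cannot be read as particular to the pathway. Against the ASC-/- arrays 5 of the 54 passed (4 higher in ASC-/- and 1 lower), where 7.39% of all genes passed, 3.85% higher and 3.54% lower. The number of pathway genes was 12 without WT replicate 3, 3 without ASC-/- replicate 3 and 2 without Casp1-/- replicate 3. It was 0 without ASC-/- replicates 1 or 2 or Casp1-/- replicates 1 or 2. With the block 1 gene passed in each of these comparisons with Casp1-/-. In ASC-/- against WT 0 of the 54 passed in limma and 0 had an unadjusted p under 0.05, where 0.0351% and 2% of all genes did.

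The 4 brightest genes of the list were Plaat3, the main phospholipase of adipocytes, Prxl2b, a prostaglandin F synthase, Ptges3 and Mgst3, a microsomal glutathione transferase. Over all arrays their means were 11.71, 11.23, 11.10 and 10.88. Plaat3 was 12.11 ± 0.072 in Casp1-/- against 11.52 ± 0.44 in WT, Prxl2b 11.67 ± 0.043 against 11.03 ± 0.52 and Mgst3 11.23 ± 0.015 against 10.76 ± 0.40, and none of these passed in limma (adjusted p = 0.101, 0.137 and 0.144). In each of the 3 the Casp1-/- arrays lay above all WT arrays, as they did for 8 of the 54 measured pathway genes and 15.1% of all genes. The mean of the 7 adipocyte markers was 11.13 to 11.20 in Casp1-/- against 10.11 to 10.96 in WT. For 4 of the 7 the Casp1-/- arrays lay above all WT arrays, and 0 passed in limma. While 5 differences were above 0, 2 were below, those of Fabp4 (-0.04) and Pck1 (-0.18, at background). The part of adipocytes was not tested. Ptges3, a cochaperone also known as cytosolic prostaglandin E synthase, was 11.04 ± 0.093 against 11.14 ± 0.060 (adjusted p = 0.454).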

How the data were processed

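RNA of epididymal fat from 10 mice was hybridised to Affymetrix HT_MG-430 PM arrays, 1 per mouse. Values were deposited on the log2 scale. The submitters' processing notes name RMA as the authors' method, which subtracts background, gives every array the same distribution and summarises probe sets. Of the genome build nothing is given in the sources used here. Of 45141 probe sets, 28898 carried 1 symbol, 551 several and 15692 none. For each of 17097 genes the probe set with the highest mean entered a linear model in limma 3.58.1 (R 4.3.3), each genotype having its own mean and all 10 arrays sharing 1 spread (7 residual and 2.43 prior degrees of freedom). Tests were two-sided, with Benjamini-Hochberg adjustment over all genes. The fit was tested on simulated data. Precision is limited by how few arrays there are. Each p-value sets a difference of means against the shared spread between mice within genotypes.

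The members, the pathway and marker lists and the alternatives were chosen with earlier results of these data known. Named were all members, the pathway genes past the threshold or among the 4 brightest, the targeted genes and the 3 profiles nearest to each called member. The spike-in block and the fit without WT replicate 1 and ASC-/- replicate 1 were added after seeing the data.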

Additional observations from a re-analysis of the deposited data

Results flagged for a closer look

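Among 22 sets of 4 WT values, 3 held an array that stood apart from the other WT arrays by Dixon's ratio, where chance gives about 1 in 20. Ptgs2 had its highest WT value, 11.90, on replicate 1 (ratio 0.864 against a critical value of 0.829). Plaat3 had its lowest, 10.87, on replicate 3 (ratio 0.892), and Mgst3 its lowest, 10.15, on the same array (ratio 0.947), the one with the highest macrophage mean and the lowest adipocyte mean (10.11).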

How the results depend on the processing

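The number of genes of the set past the threshold in Casp1-/- minus WT was 2. It became 0 with only the compared groups, with the replicate block and with the spike-in block. It was 4 without WT replicate 1 and ASC-/- replicate 1, and with single arrays left out it ran from 0 to 5. Alox5ap also passed in this comparison with the dimmest genes left out and with array weights, as given above. Counts under the remaining settings are not given, nor are the counts over all genes under any alternative setting. In ASC-/- minus Casp1-/- the count of 1 became 3 with the dimmest genes left out, 4 with array weights, 3 with only the compared groups, 0 with the replicate block, 0 with the spike-in block and 2 without both named arrays (0 to 3 with single arrays left out). For the other pathway genes, 8 calls in Casp1-/- minus WT became 4 with means over probe sets, 1 with only the compared groups, 0 with the replicate block and 1 with the spike-in block (0 to 9), and 5 in ASC-/- minus Casp1-/- became 14 with array weights, 14 with only the compared groups, 0 with the replicate block, 1 with the spike-in block and 3 without both arrays (0 to 12). The replicate numbers did not pair the mice (correlations of deviations from -0.26 to 0.185). Both counts in ASC-/- minus WT were 0 under every alternative run.

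Signs turned only for differences that had not passed. In ASC-/- minus WT these were, with means over probe sets, Ptgs2 (-0.10) and Lta4h (0.024); with array weights, Ptgs2 (-0.20), Hpgds (-0.21), Alox5ap (-0.0025) and Lta4h (0.018); with the replicate block, Ptgs2 (-0.28), Ptgds (-0.084), Alox5 (-0.019) and Ltc4s (-0.0085); with the spike-in block, Hpgds (-0.22), Ptges (0.30), Alox5ap (-0.13) and Lta4h (0.050); and without WT replicate 1 and ASC-/- replicate 1, Ptgs2 (-0.18), Hpgds (-0.48), Alox5ap (-0.22) and Lta4h (0.059). In Casp1-/- minus WT with the spike-in block they were Ptges (-1.02) and Ltc4s (-0.16), and in ASC-/- minus Casp1-/- Ptges (1.32) and Ltc4s (0.30) with that block, Ltc4s with array weights (0.079), and Ptgs2 (-0.073) and Ltc4s (0.16) without both arrays. With single arrays left out, ASC-/- minus WT ranged from -2.04 to 2.02 for Ptgs2, -0.22 to 0.69 for Hpgds, -0.30 to 0.75 for Ptgds, -0.69 to 0.30 for Ptges, -0.068 to 0.21 for Alox5, -0.13 to 0.31 for Alox5ap, -0.035 to 0.050 for Lta4h, -0.11 to 0.23 for Ltc4s and -0.44 to 0.24 for Pla2g7 (-0.70 without both named arrays). Casp1-/- minus WT ranged from -0.096 to 0.23 for Ltc4s, and ASC-/- minus Casp1-/- from -0.073 to 3.55 for Ptgs2 and -0.14 to 0.16 for Ltc4s. The causes were not tested. Signals below 5.01 cannot be told from background.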
